A study of Homo sapiens with 12 samples.

Results

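Immediate early genes are the genes that a cell transcribes first after a growth factor, cytokine or stress signal, before any new protein has been made. A set of 38 of them was followed here in human gastric cancer cell lines: the FOS and JUN genes of the transcription factor AP-1 with their relatives ATF3 and MAFF, the EGR, NR4A and KLF transcription factors, the IER genes, SRF, MYC, ARC, CCN1, CCN2, SGK1 and PHLDA1, and the feedback genes of the DUSP, SPRY and ZFP36 families. They were listed by gene symbol, with earlier results of these data known, and all 38 were among the 50868 Ensembl gene identifiers of the deposited count table. RNA was sequenced from 12 libraries of MKN28 and MKN45, both labelled as gastric cancer cells, in 4 groups of 3 libraries. MKN28 cells of genotype WT, described as LV-Control, were compared with MKN28 cells of genotype ZNF165 knockdown. MKN45 cells of genotype WT, also described as LV-Control, were compared with MKN45 cells of genotype ZNF165 Overexpression, described as LV-ZNF165. The question of the design is which genes change when ZNF165, a C2H2 zinc finger gene, is lowered in one line and raised in the other. The line and the direction of the ZNF165 change therefore cannot be told apart.

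The description of knockdown replicate 1 names LV-ZNF165-siRNA, while those of replicates 2 and 3 name ZNF166 and ZNF167 at the same place, and the genotype field, which names ZNF165 in all 3, was followed. Neither separate cultures nor clones are mentioned for the replicates, so the tests reflect the scatter of these libraries, and that scatter may be technical. ZNF165 itself had 262, 186 and 287 counts in MKN28 controls and 74, 40 and 22 in the knockdown libraries. In MKN45 it had 156, 140 and 277 counts in controls and 2115, 1977 and 1909 in the overexpression libraries. Its log2 fold change was −1.47 ± 0.53 (SE) in the knockdown (edgeR quasi-likelihood test, adjusted p = 0.0459) and 3.09 ± 0.31 in the overexpression (adjusted p = 0.0109).

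AP-1 is a dimer of a FOS protein and a JUN protein, or of JUN proteins alone, that binds short DNA sites near genes of growth, invasion and stress responses. In epithelial cells, growth factor receptors reach these genes through the RAS and ERK kinases, which phosphorylate cofactors of SRF, the serum response factor, at a DNA element called the CArG box. The burst is short because several of the induced genes shut it off: DUSP phosphatases inactivate ERK and its relatives, SPRY proteins dampen receptor signalling, and ZFP36 proteins destabilise the messages.

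The libraries held 12075813 to 19548445 counts. Knockdown libraries had counts for 17504 to 20560 genes, against 21102 to 22579 in MKN28 controls. Across genes, the rank correlation of level with transcript length was −0.135 to −0.045 in knockdown libraries and 0.158 to 0.263 in MKN28 controls, and that with GC content was 0.076 to 0.39 against −0.115 to 0.11. MKN45 control replicate 2 stood apart from the other MKN45 libraries in both measures (0.056 with length, 0.19 with GC). Of 9 gastric epithelial markers, TFF3 was at 0 in MKN28, and the keratins, EPCAM and CDH1 were present in every library. The summed level of the 9 was 7549 to 8144 CPM (counts relative to the library total) in MKN28 controls, 15245 to 41093 in the knockdown, 5210 to 9615 in MKN45 controls and 4738 to 7756 in the overexpression. The markers did not move together in the knockdown: KRT8 stood at 2633 to 3751 CPM in MKN28 controls and at 8839 to 24871 in the knockdown, while CDH1, the epithelial cadherin, stood at 351 to 445.5 and at 34.4 to 96.7. EPCAM was at 464 to 611 CPM in MKN28 controls, at 831 in knockdown replicate 1 and at 109 and 150.3 in replicates 2 and 3. Of 14 fibroblast, immune and endothelial markers, COL1A1 was the highest, at 88.8 to 122 CPM in MKN28 controls, 23.9 to 43.1 in the knockdown and 17.0 to 25.8 in MKN45. CD68 was at 9.13 to 37.3, 30.5 to 37.5 and 3.13 to 5.72 CPM in that order. CD14 was at 0 to 0.409 CPM in MKN28 controls and at 1.72 to 3.53 in the knockdown, and the other 11 were at 0 to 2.72 CPM in every library. The level of CLDN4, a tight junction gene, was 2299 and 1787 CPM in knockdown replicates 2 and 3, and 3.71 CPM in knockdown replicate 1. The part of these library differences in the results below was not tested, apart from a fit with the trends on length and GC removed. That fit was read for the 38 genes, but not for the further gene lists at the end.

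Promoter sequences were at hand for 28 of the 38 genes, 20 with 1 annotated start and 8 with several, from RefSeq (GRCh38.p14). They are shown for EGR1 and FOSB, which rose with overexpression, for SRF, JUND and MAFF, which rose with the knockdown, and for FOS, which fell with it. Each is the run of 250 bases that ends at the base before the annotated start, read 5′ to 3′ on the strand of the gene. SRF and MAFF have more than 1 start, and the one with a match is shown. Capitals mark matches to the CArG box, to TGACGTCA (the full cyclic AMP response element, CRE) or to GCGNGGGCG (the motif bound by EGR proteins), searched on both strands.
EGR1 (chr5:138465229-138465478, plus strand): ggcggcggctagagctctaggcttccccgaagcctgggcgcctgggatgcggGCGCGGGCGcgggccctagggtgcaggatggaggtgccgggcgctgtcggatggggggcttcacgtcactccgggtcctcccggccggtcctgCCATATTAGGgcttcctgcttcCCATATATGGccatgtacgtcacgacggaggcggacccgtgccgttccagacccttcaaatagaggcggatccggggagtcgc
FOSB (chr19:45467746-45467995, plus strand): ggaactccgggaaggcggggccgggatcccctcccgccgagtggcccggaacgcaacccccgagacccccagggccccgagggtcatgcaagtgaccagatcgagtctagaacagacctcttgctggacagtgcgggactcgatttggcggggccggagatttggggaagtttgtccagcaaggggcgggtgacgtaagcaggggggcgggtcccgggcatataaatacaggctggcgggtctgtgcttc
SRF (chr6:43171019-43171268, plus strand): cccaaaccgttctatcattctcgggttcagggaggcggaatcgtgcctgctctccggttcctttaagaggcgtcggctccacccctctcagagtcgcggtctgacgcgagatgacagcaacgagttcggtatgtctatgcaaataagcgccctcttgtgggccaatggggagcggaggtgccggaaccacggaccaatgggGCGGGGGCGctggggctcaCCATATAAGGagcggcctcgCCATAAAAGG
JUND (chr19:18281623-18281872, minus strand): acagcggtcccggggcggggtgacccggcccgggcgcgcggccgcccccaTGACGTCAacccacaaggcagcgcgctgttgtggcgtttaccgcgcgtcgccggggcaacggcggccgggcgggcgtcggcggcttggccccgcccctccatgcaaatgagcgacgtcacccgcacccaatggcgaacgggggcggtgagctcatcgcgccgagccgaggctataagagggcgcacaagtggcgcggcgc
MAFF (chr22:38201744-38201993, plus strand): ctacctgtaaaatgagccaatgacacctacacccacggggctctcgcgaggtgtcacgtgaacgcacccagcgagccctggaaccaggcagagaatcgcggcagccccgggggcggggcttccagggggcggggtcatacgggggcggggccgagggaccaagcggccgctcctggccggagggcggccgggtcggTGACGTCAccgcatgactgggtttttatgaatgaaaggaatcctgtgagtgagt
FOS (chr14:75278578-75278827, plus strand): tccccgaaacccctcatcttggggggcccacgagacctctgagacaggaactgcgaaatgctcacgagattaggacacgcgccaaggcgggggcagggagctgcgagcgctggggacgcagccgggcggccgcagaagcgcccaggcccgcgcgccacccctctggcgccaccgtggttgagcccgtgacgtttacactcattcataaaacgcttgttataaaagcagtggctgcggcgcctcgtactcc

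The EGR1 promoter held a pair of CArG boxes that begin 105 and 83 bases before the start, and an EGR motif that begins 198 bases before it. The SRF promoter held the same kinds of element nearer to the start, with CArG boxes at 30 and 10 bases and an EGR motif at 49. A full CRE began 200 bases before the start of JUND and 54 bases before that of MAFF, and also 125 bases before that of DUSP1 and 52 before that of ZFP36L1. Over windows of 300 bases (250 before and 50 after the start), a CArG box was in 3 of the 39 promoters of these genes (EGR1, EGR2 and SRF) and in 1.29% of all 35116 promoters. A CRE was in 4 of 39 against 1.85%. The AP-1 site TGANTCA was in 1 of 39, that of FOSL2, against 7.71%, and the EGR motif was in 10 of 39 against 9.43%. These are matches of letters, and a gene without one may carry the element in another form or elsewhere.

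Levels are compared between genes as CPM per kilobase of the longest annotated transcript, scaled over all 12 libraries, as mean ± SD over 3 libraries. In MKN28 controls the highest were JUNB at 150.3 ± 93.3, FOS at 150.2 ± 89.8 and EGR1 at 133 ± 70.6, which did not differ beyond their spread. In MKN45 controls IER3, an early gene linked to cell survival, led by far at 1343 ± 483, before CCN1 at 179 ± 71.9 and JUNB at 120.3 ± 59.2. The knockdown libraries had another order, with FOSL1 first at 903 ± 617, followed by JUNB at 431 ± 203 and IER2 at 388 ± 430.1. FOSL1 had been the eighth of the 38 in the MKN28 controls. EGR4 was at the bottom in both MKN28 groups, with 0 counts in all 6 libraries.

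With ZNF165 knocked down in MKN28, the FOS family changed its makeup: FOSL1, the FOS relative that lacks a strong activation domain, rose, and FOS fell. Of 35 members tested, 7 rose (FOSL1, JUN, JUND, MAFF, SRF, IER5 and CCN1), 3 fell (FOS, EGR2 and EGR3) and 25 did not pass the adjusted p threshold of 0.05. That is 28.6% of the members, while 40.8% of all 14939 genes tested passed (19.2% higher and 21.6% lower), so the share of members was below the background. The libraries of the groups did not overlap for 9 members that were higher and 7 that were lower, where 23.5% and 30.3% of all genes did so. In either direction that is 45.7% of the members and 53.8% of all genes. The median log2 fold change was 0.41 over the members and −0.20 over all genes tested. Scaling by library totals alone moved these medians to −0.45 and −0.92 and the members past the threshold to 4 higher and 7 lower. With the length and GC trends removed the medians lay close together, at −0.03 over the members and −0.11 over all genes. Over all genes, 47.0% of the calls were higher in the main scaling and 25.1% with library totals alone. A lower relative level in such bulk RNA can come from fewer cells that carry the transcript or from a smaller share of it per cell. These cannot be told apart.

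**Figure D1:**
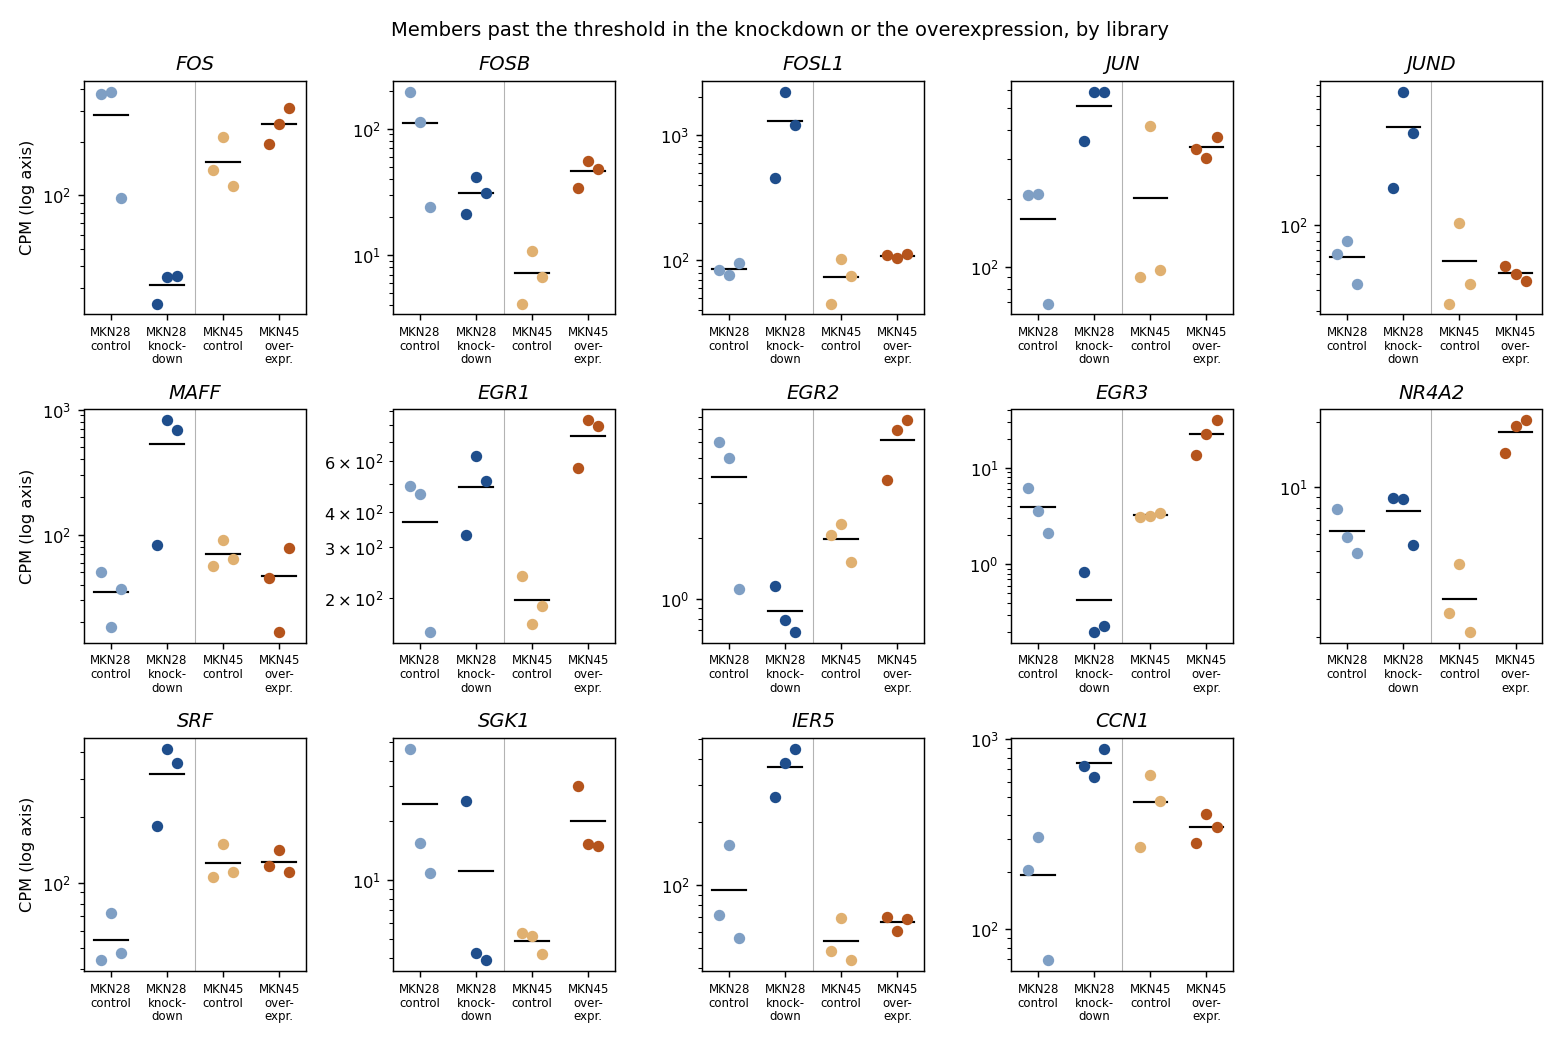
Level of 14 genes past the threshold in the knockdown or the overexpression, in each library, as CPM scaled within each line on a log axis; dots are libraries and bars are the means of 3. FOSL1, JUN, JUND, MAFF, SRF, IER5 and CCN1 sit higher in all knockdown libraries than in all MKN28 controls, and FOSB, EGR1, EGR3, NR4A2 and SGK1 sit higher in all overexpression libraries than in all MKN45 controls.

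FOS, the founding subunit of AP-1 (ENSG00000170345, chr14:75278774-75282230 in GENCODE 29 on GRCh38), stood at 374, 385 and 96.4 CPM in MKN28 control replicates 1 to 3 and at 24.5, 34.7 and 35.02 CPM in knockdown replicates 1 to 3. Here and below CPM is scaled within the comparison. All knockdown libraries were below all controls, and control replicate 3 was the lowest of its group. FOS fell 9.08-fold (log2 −3.18 ± 0.60 SE, adjusted p = 0.00456). FOSL1 (ENSG00000175592, chr11:65892049-65900573) stood at 84.6, 76.1 and 94.8 CPM in controls and at 456, 2219.8 and 1201 CPM in the knockdown. The controls were close together while the knockdown libraries spread widely, with replicate 1 the lowest, yet still far above every control. FOSL1 rose 15.2-fold (log2 3.92 ± 0.64 SE, adjusted p = 0.0037). FOSB and FOSL2, the other members of the family, gave log2 fold changes of −1.83 ± 0.68 (adjusted p = 0.0532) and −0.28 ± 0.48 (adjusted p = 0.658), with overlapping groups.

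Within each library the ratio of these genes does not depend on the scaling between libraries. FOSL1 had 0.226, 0.198 and 0.983 counts for each FOS count in MKN28 controls, and 18.6, 64.0 and 34.3 in the knockdown libraries. Per kilobase, FOSL1 made up 16.3% to 44.9% of the family's counts in controls and 85.3% to 97.1% after the knockdown, while FOS went from 35.3% to 63.9% down to 1.17% to 3.55%. The MKN45 groups overlapped in this ratio, at 0.327, 0.476 and 0.670 in controls and 0.563, 0.417 and 0.362 in overexpression libraries. With the length and GC trends removed, the log2 fold change was 1.86 for FOSL1 (adjusted p = 0.0034) and −4.10 for FOS (adjusted p = 0.00142).

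**Figure D2:**
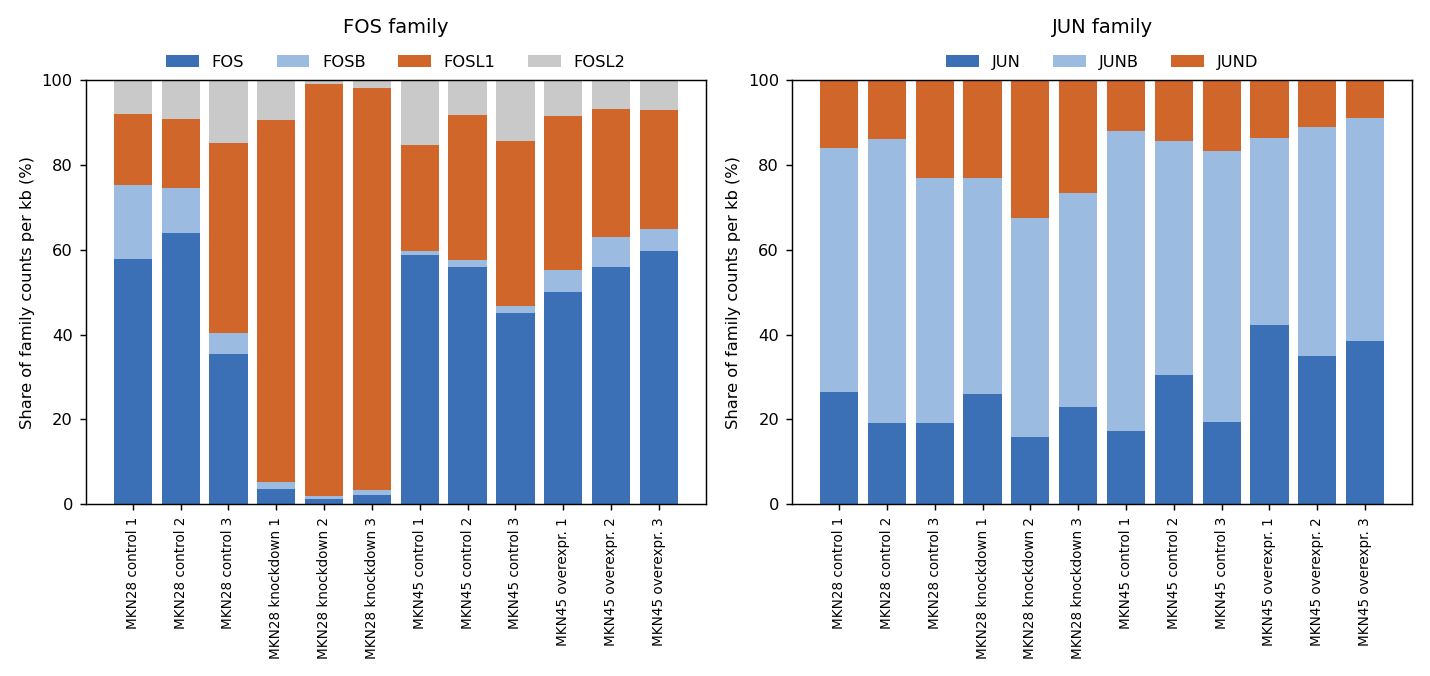
Share of each FOS family member (left) and each JUN family member (right) in the family's summed counts per kilobase, in percent, as 1 stacked bar per library. FOSL1 takes 85.3% to 97.1% of the FOS family in the 3 knockdown libraries and 16.3% to 44.9% in the MKN28 controls, while JUNB is the largest part of the JUN family in all 12 libraries.

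In the JUN family, whose proteins are the obligatory partners of the FOS proteins, 2 of 3 members passed. JUN stood at 207, 209 and 68.9 CPM in controls and at 359, 593 and 592 CPM in the knockdown, a rise of 3.18-fold (log2 1.67 ± 0.54 SE, adjusted p = 0.0306). JUND, the member least dependent on stimulation, stood at 66.2, 80.1 and 43.9 CPM and at 168, 641 and 362 CPM, a rise of 6.15-fold (log2 2.62 ± 0.57 SE, adjusted p = 0.007). Neither gene's groups overlapped, and knockdown replicate 1 was the lowest of its group for both. With the length and GC trends removed the log2 fold changes were smaller, 1.05 for JUN (adjusted p = 0.0442) and 1.18 for JUND (adjusted p = 0.00482). JUNB gave a log2 fold change of 1.49 ± 0.58 (adjusted p = 0.0619) with overlapping groups, and −0.06 (adjusted p = 0.888) with the trends removed. JUNB remained the largest share of the family in each of the 12 libraries, at 50.6% to 51.5% in the knockdown and 57.5% to 67.1% in MKN28 controls. JUNB overlaps HOOK2 on the other strand, which had 302 to 539 counts in the knockdown and 807 to 872 in MKN28 controls, against 5616 to 9995 and 2468 to 8959 counts of JUNB.

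MAFF, a small MAF protein that pairs with other leucine zipper factors, stood at 50.01, 18.3 and 36.97 CPM in controls and at 83.4, 826 and 689 CPM in the knockdown. The groups did not overlap, but knockdown replicate 1 was much nearer to the controls than replicates 2 and 3. MAFF rose 15.2-fold (log2 3.92 ± 0.81 SE, adjusted p = 0.0058), and with the length and GC trends removed its log2 fold change was 2.67 (adjusted p = 0.00893). Without the 2 libraries described as ZNF166 and ZNF167 it was 1.29 (adjusted p = 0.101), and without knockdown replicate 1 it was 4.56. PLA2G6, which overlaps MAFF on the other strand, had only 40 to 85 counts in the knockdown and 95 to 116 in controls. ATF3, a stress-induced relative of the FOS genes, had overlapping groups at log2 0.54 ± 0.47 (adjusted p = 0.368).

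SRF, the factor that binds the CArG boxes, stood at 43.8, 72.3 and 47.5 CPM in controls and at 182, 413 and 354 CPM in the knockdown. Every knockdown library was above every control. SRF rose 5.803-fold (log2 2.54 ± 0.50 SE, adjusted p = 0.00504). CCN1, a secreted matrix protein induced by serum, stood at 204, 306 and 68.6 CPM and at 728, 638 and 895 CPM, and rose 3.901-fold (log2 1.96 ± 0.57 SE, adjusted p = 0.0209). IER5, an early response gene, stood at 71.9, 155 and 56.03 CPM and at 263, 384 and 449 CPM, and rose 3.87-fold (log2 1.95 ± 0.52 SE, adjusted p = 0.0147). For both genes the groups were apart, and control replicate 3 was the lowest library.

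The EGR genes, zinc finger factors switched on by ERK and SRF, did not move as 1 group. EGR1, which held at least 97.8% of the family's counts per kilobase in each MKN28 library, stood at 489.8, 460.5 and 152 CPM in controls and at 332, 625 and 509.8 CPM in the knockdown (log2 0.41 ± 0.54 SE, adjusted p = 0.558). EGR3 had 149, 85 and 49 counts in controls and 13, 2 and 2 in the knockdown, at 6.16, 3.605 and 2.12 and 0.835, 0.198 and 0.229 CPM. It fell 8.75-fold with no overlap (log2 −3.13 ± 0.76 SE, adjusted p = 0.0102). Without knockdown replicate 1 the log2 fold change of EGR3 was −4.06 (adjusted p = 0.000715), and without the libraries described as ZNF166 and ZNF167 it was −2.21 (adjusted p = 0.0793). EGR2 had 145, 118 and 26 counts in controls and 18, 8 and 6 in the knockdown. It fell 4.52-fold (log2 −2.18 ± 0.72 SE, adjusted p = 0.0343), although control replicate 3, at 1.13 CPM, lay below knockdown replicate 1, at 1.16 CPM. Such counts are small, and counting error is a visible part of their spread. EGR2 and EGR3 passed the count filter only through the controls, the group where they were high, which limits what their tests show.

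Within the set, none of the orphan nuclear receptors NR4A1 to NR4A3, the KLF factors, the tested DUSP and SPRY feedback genes or the ZFP36 genes passed in the knockdown (edgeR). DUSP2 and DUSP5, with 0 to 3 and 0 to 6 counts in each knockdown library, were not tested there, nor was EGR4. With DESeq2, 12 members were higher and 4 lower, in place of 7 and 3, while 7289 of all 14939 genes were called in place of 6092. At an unadjusted p under 0.05 edgeR had 13 higher and 7 lower, for which no share over all genes was computed. DUSP1, which inactivates ERK, JNK and p38 in the nucleus, gave log2 0.95 ± 0.66. KLF6 and ZFP36L1 were lower in all knockdown libraries, at log2 −1.36 ± 0.58 (adjusted p = 0.0836) and −1.23 ± 0.47 (adjusted p = 0.0557). IER2 and MYC had large fold changes, log2 2.92 ± 1.22 and 2.36 ± 0.91, that did not pass (adjusted p = 0.0778 and 0.0589), and their libraries spread widely. IER2 stood at 252, 10.8 and 130.3 CPM in controls and at 736, 2180.4 and 48.9 CPM in the knockdown, and MYC at 8.48, 4.74 and 72.6 CPM in the knockdown with all controls between 5.29 and 6.07 CPM.

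FOS, FOSL1 and SRF passed the threshold in all 13 alternative analyses, and JUND and MAFF in 12. Without the libraries described as ZNF166 and ZNF167, leaving 1 knockdown library, 4 of the 10 calls held (FOSL1, SRF, CCN1 and FOS), with log2 fold changes of 2.46, 1.77, 1.93 and −3.52. In that fit the remaining library is assumed to vary like the controls. JUND, at 1.43 (adjusted p = 0.0504), was among those lost. JUN held in 6 alternatives and EGR2 in 8. Without MKN28 control replicate 1, 5 of the 10 calls were lost, with log2 fold changes of 1.86 for JUN, 1.98 for CCN1, 1.77 for IER5, −1.80 for EGR2 and −2.70 for EGR3. All genes called went from 6092 to 2642 in that smaller fit. Without control replicate 3, where 3171 genes were called, JUN, IER5 and CCN1 were lost. FOSL1 was at 3.29 without knockdown replicate 2. Library totals alone moved the log2 fold changes of all 10 calls by −1.03 to −0.64 and ended those of JUN, IER5 and CCN1.

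With ZNF165 overexpressed in MKN45, 5 members rose, FOSB, EGR1, EGR3, NR4A2 and SGK1, and none fell (edgeR). These are 13.9% of the 36 tested, against 1.13% of all 15833 genes (0.935% higher and 0.196% lower). The libraries of the groups were apart for 13 members that were higher and 1 that was lower, where 19.4% and 18.7% of all genes were. In either direction that is 38.9% of the members and 38.1% of all genes. At an unadjusted p under 0.05 there were 12 higher and 1 lower, for which no share over all genes was computed. DESeq2 had 11 higher and 0 lower, but it also called 1834 of all 15833 genes in place of 179. The median log2 fold change was 0.55 over the members and −0.0022 over all genes tested.

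FOSB, the FOS family member of sustained responses, stood at 4.14, 10.7 and 6.69 CPM in MKN45 controls and at 34.1, 55.7 and 48.01 CPM in the overexpression (log2 2.68 ± 0.37 SE, adjusted p = 0.0207). ERCC1 overlaps FOSB on the other strand and had 852 to 1335 counts in MKN45 controls and 966 to 1112 in the overexpression, while FOSB went from 74 to 145 counts to 671 to 1138. FOSB still made up only 4.99% to 7.05% of the FOS family per kilobase after its rise, up from 1.00% to 1.60%. FOS, whose share was 50.1% to 59.7%, stood at 138, 214 and 113 CPM in controls and at 196, 253 and 311 CPM (log2 0.71 ± 0.29 SE, adjusted p = 0.162), with overlapping groups. FOSL1, JUN, JUNB and JUND did not pass either, at log2 0.56 ± 0.29, 0.74 ± 0.53, −0.12 ± 0.34 and −0.24 ± 0.39. JUN in control replicate 2 was at 418 CPM, above every overexpression library, while the other controls were at 89.9 and 96.7 CPM.

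EGR1 stood at 238, 162 and 188 CPM in controls and at 569, 835 and 795 CPM in the overexpression, so that all overexpression libraries were well above the controls (log2 1.90 ± 0.24 SE, adjusted p = 0.0202). The increase is far larger in absolute level than for the other early factors: EGR1 reached 204 ± 39.4 CPM per kilobase, against 4.54 ± 1.77 for EGR3 and 10.6 ± 2.53 for FOSB. EGR3 stood at 3.13, 3.17 and 3.38 CPM in controls, which lay very close together, and at 13.6, 22.6 and 31.4 CPM in the overexpression (log2 2.80 ± 0.34 SE, adjusted p = 0.0186). EGR2 had no overlap either, at 2.07, 2.36 and 1.53 against 3.91, 6.902 and 7.72 CPM, but missed the threshold (log2 1.64 ± 0.35, adjusted p = 0.0534). EGR4 had overlapping groups, with 13, 21 and 22 counts in controls and 23, 64 and 48 in the overexpression.

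NR4A2, an orphan nuclear receptor known from dopamine neurons and from prostaglandin signalling, stood at 2.57, 4.35 and 2.102 CPM in controls and at 14.5, 19.3 and 20.5 CPM in the overexpression (log2 2.59 ± 0.33 SE, adjusted p = 0.0202). Its share of the NR4A counts per kilobase was 7.58% to 17.8% in controls and 21.5% to 29.1% in the overexpression, with NR4A1 the larger part in every library. NR4A1 was at 16.5, 73.8 and 21.8 CPM in controls, again with replicate 2 high, and at 49.2, 98.1 and 96.6 CPM (adjusted p = 0.215). SGK1, a kinase regulated by serum and glucocorticoids, stood at 5.37, 5.16 and 4.204 CPM and at 29.9, 15.2 and 14.9 CPM (log2 2.02 ± 0.33 SE, adjusted p = 0.0363). Its groups were apart, and overexpression replicate 1 was the highest.

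Further genes had all overexpression libraries above all controls without passing. KLF2 was at 3.24, 3.61 and 3.63 against 7.52, 7.49 and 13.6 CPM (adjusted p = 0.0544), CCN2, a secreted matrix protein and YAP target, at 13.4, 22.3 and 24.6 against 56.6, 74.7 and 41.7 CPM (adjusted p = 0.0526), and KLF10 at 75.7, 44.3 and 90.7 against 108, 210.2 and 204 CPM (adjusted p = 0.075). KLF6, ZFP36, FOSL1 and SPRY2 had the same order of groups, with adjusted p from 0.0781 to 0.248. Among the DUSP genes of the set, DUSP4 alone had no overlap and was lower, at 289.6, 366 and 313 against 210.1, 272 and 239.6 CPM (adjusted p = 0.217).

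Without any 1 of the overexpression libraries or MKN45 control replicate 3, none of the 5 passed, while their log2 fold changes stayed at 2.48 to 3.04 for EGR3, 2.51 to 2.84 for FOSB, 2.39 to 2.72 for NR4A2, 1.79 to 2.04 for EGR1 and 1.60 to 2.19 for SGK1. In these smaller fits 1 to 12 genes passed in all, in place of 179, and the adjusted p of the 5 was 0.0551 to 0.137. In a fit of all 12 libraries the 5 were at 1.89 to 2.79 and none passed (adjusted p = 0.0817 to 0.424). SGK1 was also lost with the length and GC trends removed (log2 1.38, adjusted p = 0.0722). Without MKN45 control replicate 2, 14 members passed, while 1338 of all 16196 genes tested did so in place of 179.

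Some libraries stood low or high for many of these genes at once. MKN28 control replicate 3 was the lowest control for 24 of 35 members (68.6%), where it was so for 33.3% of all genes tested. MKN45 control replicate 2 was the highest control for 22 of 36 members (61.1%), against 41.4% of all genes. DUSP1, for instance, had 4631, 6033 and 743 counts in MKN28 controls and 244, 594 and 158 in MKN45 controls. CCN2 had 656, 622 and 51 counts in MKN28 controls. Among overexpression libraries replicate 1 was the lowest for 21 of 36 members (58.3%), against 39.2% of all genes.

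**Figure D3:**
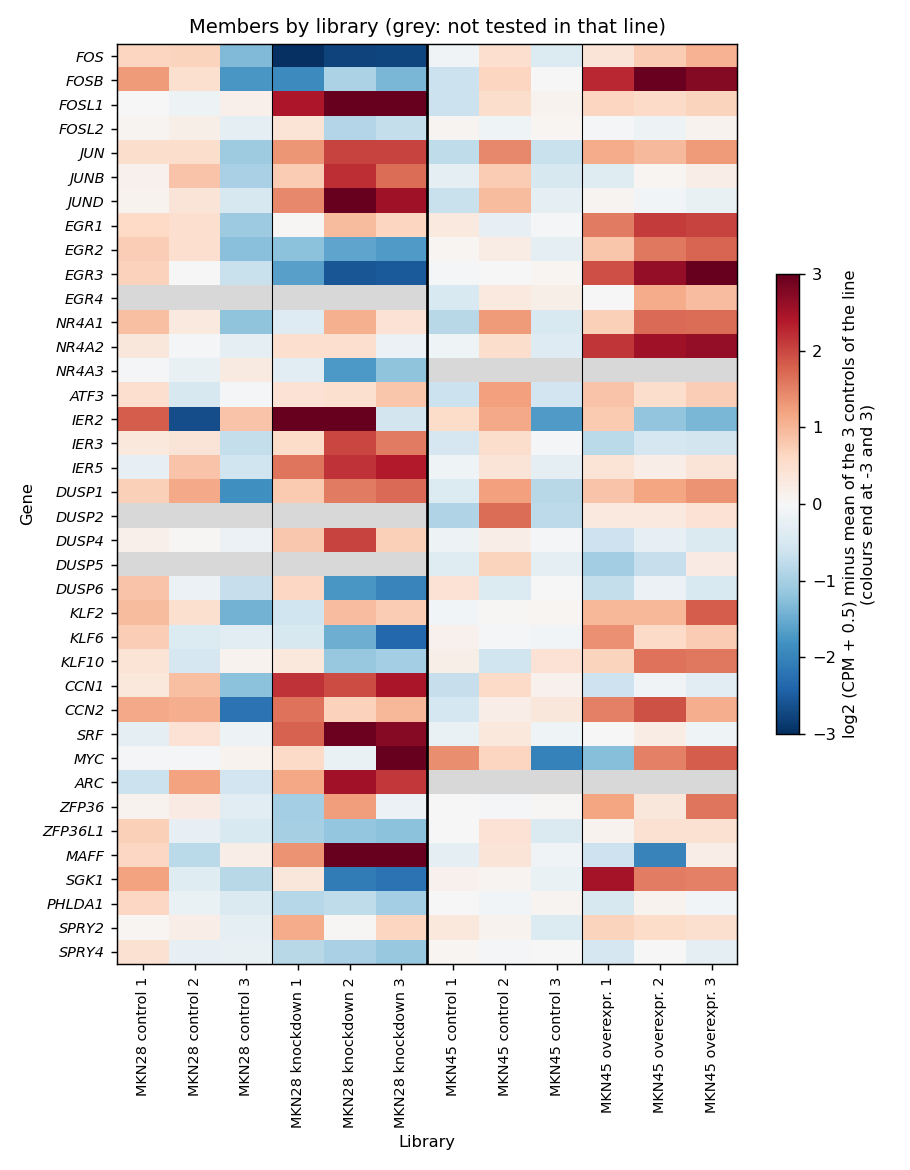
Difference of each gene in each library from the mean of its line's controls, on a log2(CPM + 0.5) scale, with genes in rows and the 12 libraries in columns; colours run from lower (blue) to higher (red). MKN28 control replicate 3 is the lowest MKN28 control for 24 of 35 genes, and MKN45 control replicate 2 the highest MKN45 control for 22 of 36.

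Both arms gave a test for 33 members. Of these, 8 were lower in the knockdown and higher in the overexpression (FOS, FOSB, EGR2, EGR3, KLF6, KLF10, ZFP36L1 and SGK1). Another 14 were higher in both, 7 were higher in the knockdown and lower in the overexpression, and 4 were lower in both. These counts use the sign alone, whether or not a gene passed. No share over all genes was computed for them or for calls in both arms. Taken singly, 13 of 35 members were lower in the knockdown and 23 of 36 higher in the overexpression. The counts therefore do not show an opposite response of the set. EGR3 was the only gene past the threshold in both, which is 1 of the 10 knockdown calls and 1 of the 5 overexpression calls. In the knockdown comparison EGR3 passed the count filter only through the controls, with 2 to 13 counts in each knockdown library. Its log2 fold changes were −3.13 ± 0.76 and 2.80 ± 0.34.

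The difference between the arms was tested in a fit of all 12 libraries, as the effect of more ZNF165 in MKN45 minus that in MKN28. It passed for 8 of 38 members, where 17.5% of 17266 genes passed. FOS was the only one of the 8 with a negative value (log2 difference −2.46 ± 0.67 SE, adjusted p = 0.0258). FOSL1 had the largest difference at 4.54 ± 0.69 (adjusted p = 0.00325). The other 6 were NR4A2, EGR1, SRF, IER5, JUND and MAFF, at 2.28 to 3.41. For EGR3 the difference was −0.28 ± 0.74 (adjusted p = 0.838), which does not show that the effects were of equal size.

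**Figure D4:**
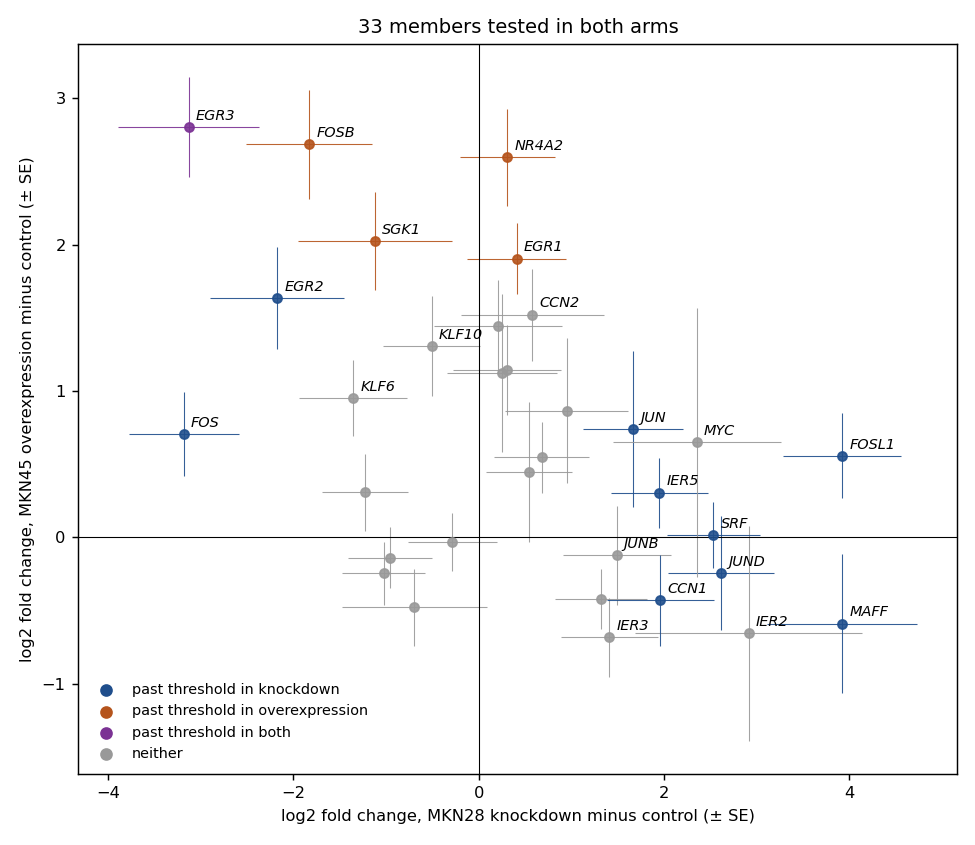
Log2 fold change in the MKN28 knockdown (horizontal) against that in the MKN45 overexpression (vertical) for the 33 genes tested in both; bars are ± 1 SE and colours give the comparison in which a gene passed the threshold. EGR3 alone passed in both, at −3.13 and 2.80.

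The control libraries of MKN45 and MKN28 differed in which early genes they carried. Of 38 members tested, 8 were higher and 13 lower in MKN45, which is 55.3% against 41.8% of 16088 genes (21.4% higher and 20.4% lower). EGR4, DUSP2 and DUSP5 passed the count filter only through the MKN45 controls, and NR4A3 and ARC only through the MKN28 controls. Tests of these genes add no support, because the filter already took them for the group where they were high. The groups were apart for 9 members higher and 11 lower, against 26.9% and 25.4% of all genes. In either direction that is 52.6% of the members and 52.3% of all genes, so the members did not stand out in this measure. The same MKN28 and MKN45 controls serve the comparisons above. The lines differ in origin and in everything that goes with it.

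The lines differed in the DUSP phosphatase genes of the set. Shares are given within the summed counts per kilobase of DUSP1, DUSP2, DUSP4, DUSP5 and DUSP6, without the DUSP genes outside the set. DUSP1 made up 67.9% to 93.1% of this sum in MKN28 controls and 4.08% to 12.7% in MKN45 controls. In the MKN45 controls DUSP4 and DUSP6, which act on ERK, took 38.6% to 46.2% and 19.8% to 44.6%. DUSP1 stood at 244, 332 and 40.4 CPM in MKN28 and at 13.4, 46.4 and 9.81 CPM in MKN45 (log2 −3.15 ± 0.73 SE, adjusted p = 0.00448). The groups overlapped, through the low MKN28 replicate 3 and the high MKN45 replicate 2, without which the log2 fold change was −4.13. DUSP6 was at 32.03, 15.7 and 10.5 against 261, 158 and 189.9 CPM (log2 3.38 ± 0.45, adjusted p = 7.46e-05), and DUSP4 at 49.99, 46.7 and 38.9 against 285, 387 and 305 CPM (log2 2.85 ± 0.31, adjusted p = 1.81e-05). DUSP2 and DUSP5, phosphatases of the nucleus, had 5 and 7 counts in all MKN28 controls together and 835 and 1837 in the MKN45 controls. The ratios of their levels were 197 (95% counting interval 84.1 to 609) and 310 (150.0 to 772), where the intervals cover counting error only. MKN45 control replicate 2 held 594 of the 835 DUSP2 counts, and without it the DUSP2 ratio was 78.2. The DUSP5 ratio was 729 (202 to 6027) without MKN28 control replicate 2, which held 5 of the 7 counts, and 207 to 360 without any other single control.

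SPRY2, an inhibitor of receptor signalling, was likewise higher in MKN45, at 12.6, 14.4 and 9.85 against 53.8, 49.9 and 31.7 CPM (log2 1.88 ± 0.36 SE, adjusted p = 0.00115). IER3 was at 179, 191 and 85.6 CPM in MKN28 and at 1358, 3023 and 1887 CPM in MKN45, 13.7-fold higher (log2 3.78 ± 0.44, adjusted p = 2.58e-05). EGR4 had 0 counts in the MKN28 controls and 56 in the MKN45 controls together, so its level was at least 22.0-fold higher, with the MKN28 group taken at 3 counts. PHLDA1, a gene induced by ERK, was 2.2002-fold higher (adjusted p = 0.0172).

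The genes lower in MKN45 included transcription factors of the FOS, EGR, NR4A and KLF families. FOSB was at 249.7, 147 and 29.9 CPM in MKN28 and at 4.08, 11.3 and 6.52 CPM in MKN45 (log2 −4.29 ± 0.69 SE, adjusted p = 0.000318). NR4A3 was at 3.37, 2.97 and 4.36 against 0.1102, 0.0781 and 0.186 CPM (log2 −4.73 ± 0.59), with only 1 to 3 counts in each MKN45 control. ARC, a gene best known from synapses, was at 2.21, 9.84 and 2.34 against 0.661, 0.234 and 0.248 CPM, with 3 to 12 counts in each MKN45 control. KLF2, KLF6, SGK1 and ZFP36L1 were lower in MKN45 with no overlap, at log2 −2.22, −1.53, −2.64 and −1.46. NR4A1, NR4A2, EGR1, IER5 and FOSL2 were lower by log2 −2.09 to −0.85. Each of these 5 lost its call when some single library was left out, as did KLF6, ZFP36L1 and PHLDA1. Without MKN28 control replicate 1 the log2 fold change was −3.64 for FOSB and −1.77 for SGK1. Without MKN28 control replicate 2 it was −2.44 for ARC and −0.52 for IER5, and without MKN45 control replicate 1 it was −4.26 for ARC. Without MKN45 control replicate 2 that of NR4A1 was −3.12.

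**Figure D5:**
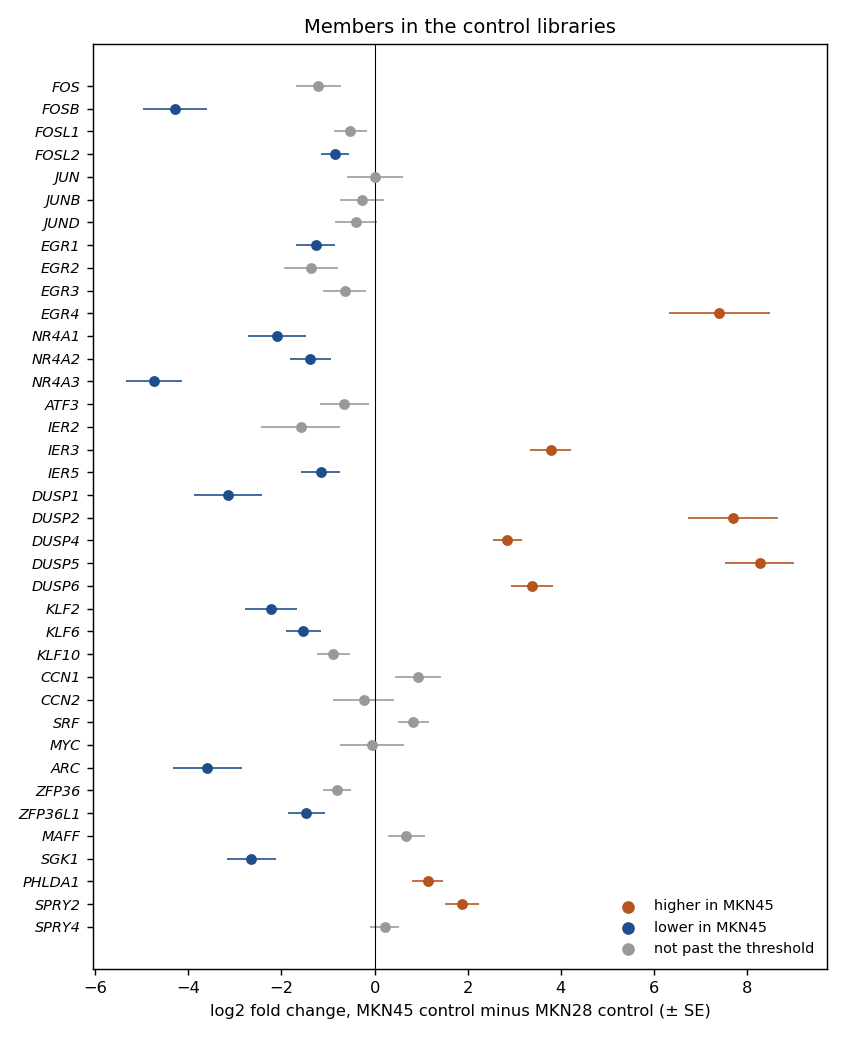
Log2 fold change of MKN45 control minus MKN28 control for all 38 genes, with bars of ± 1 SE; orange marks genes past the threshold that were higher in MKN45 and blue those that were lower. The DUSP genes other than DUSP1 lie on the positive side, and DUSP1, FOSB, NR4A3 and ARC far on the negative side.

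The upstream and downstream genes of the pathway were followed in 8 further lists, 158 genes in all. In the knockdown, 37 of 145 tested were higher and 38 lower. The lists were not read in the fit with the length and GC trends removed. For the 38 members that fit took the median log2 fold change from 0.41 to −0.03, so the list values below carry this limit. AP-1 target genes, which encode proteases, laminins and other products of invasion and wound responses, had 10 higher and 1 lower of 17 tested, with a median log2 fold change of 2.23 against −0.20 over all genes. MMP9, a matrix protease, rose from 0.936 ± 0.578 to 12.4 ± 7.99 CPM (log2 3.71 ± 0.80 SE, adjusted p = 0.00669), and S100A2, a keratinocyte gene, from 0.311 ± 0.0704 to 7.75 ± 3.84 CPM. Other early response genes had 9 higher and 2 lower of 26. CSRNP1, an early nuclear factor, rose 24.1-fold (log2 4.59 ± 0.60 SE, adjusted p = 0.00367) and SERTAD1 13.9-fold.

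In the ERK pathway and its SRF cofactors 3 of 25 were higher and 12 lower, and in the JNK and p38 pathway 2 of 15 were higher and 6 lower, with median log2 fold changes of −0.88 and −1.63. ELK1, the SRF cofactor, rose (log2 2.51 ± 0.57 SE, adjusted p = 0.00806), and SOS2, an exchange factor of RAS, fell (log2 −3.66 ± 0.66 SE, adjusted p = 0.00417). Among leucine zipper partners of AP-1, 3 were higher and 6 lower of 17. BATF2 rose (log2 4.20 ± 0.65 SE) and ATF2, a partner of JUN, fell (log2 −3.55 ± 0.66 SE). Other ERK feedback and output genes had 5 higher and 6 lower of 21. DUSP14 rose (log2 2.39 ± 0.43 SE), and ERRFI1, an inhibitor of the EGF receptor, fell (log2 −2.79 ± 0.70 SE). Of 5 EGF family ligands, 1 was higher, AREG, and 1 lower, EGF. Of 19 YAP and SRF target genes, 4 were higher and 4 lower. These counts stand beside 19.2% higher and 21.6% lower over all genes.

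In the overexpression only the other early response genes held calls, 3 higher of 27, among them NFKBIZ, a cofactor of NF-kappaB (15.7-fold, adjusted p = 0.00437), and BTG2, an inhibitor of proliferation (3.56-fold, adjusted p = 0.0446). Over all 8 lists, 3 of 143 were higher and 0 lower with edgeR, beside 0.935% and 0.196% over all genes. At an unadjusted p under 0.05 there were 18 higher and 20 lower, for which no share over all genes was computed. DESeq2 had 12 and 9, where it called 1834 of all 15833 genes. The AP-1 target genes, of which 10 rose with the knockdown, had a median log2 fold change of −0.06 over 17 tested, with 0 higher and 0 lower. Between the lines, 26 of 149 were higher and 45 lower in MKN45, beside 21.4% and 20.4% over all genes. AP-1 target genes had 9 higher and 4 lower of 19, the ERK pathway 0 and 10 of 25, leucine zipper partners 0 and 3 of 17, JNK and p38 genes 1 and 3 of 15, EGF family ligands 2 and 3 of 6, other early response genes 6 and 6 of 27, feedback genes 5 and 7 of 22, and YAP and SRF targets 3 and 9 of 18. CD44, an adhesion receptor, stood at 0.647 ± 0.421 CPM in MKN28 and at 849.7 ± 44.8 CPM in MKN45. EREG, an EGF family ligand, stood at 0.784 ± 0.569 and 34.7 ± 14.5 CPM, and AREG, another, at 132 ± 55.7 and 15.8 ± 4.27 CPM.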

How the data were processed

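RNA-seq of 12 libraries was analysed. The authors deposited 1 table of read counts, whole numbers for each Ensembl identifier and library, as its header and values show. HISAT2 and StringTie were used, per the submitters' processing notes, without versions. How the counts were made, and with which genome build, annotation and strand setting, is not given in the sources used here. A gene and an overlapping gene on the other strand may therefore share reads. Groups and replicate numbers follow the labels. The 38 members, the other gene lists and the alternatives were chosen with earlier results of these data known.

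Tests used edgeR 4.0.16 in R 4.3.3: TMM scaling, filterByExpr (minimum count 10, minimum total 15), the quasi-likelihood test and Benjamini-Hochberg adjustment over all genes tested, with calls at an adjusted p under 0.05. Knockdown, overexpression and control lines were each fitted on their own 6 libraries. The difference between the arms used all 12. The script was tested on simulated data. In the knockdown fit it recovered 20% of 4-fold and 57.1% of 8-fold changes, and in the overexpression fit 96% and 100%. A gene that did not pass in the knockdown may therefore still have changed. DESeq2 1.42.0, library totals alone, no filter, all 12 libraries in 1 fit, a replicate block, removal of length and GC trends (values for 99.4% to 99.5% of genes) and single libraries left out were tried as alternatives. Lengths and coordinates come from GENCODE 29. A count of 0 allows a level of up to 3 counts, which covers counting error only, since reads carried no molecular identifiers. Replicates differed far beyond counting error (chi-square per degree of freedom 19.5 to 417). The genes named are ZNF165, the 38 members, and at most 2 rising and 2 falling genes per other list and comparison, with the largest fold past the threshold. Cell type markers are named as checks.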

Additional observations from a re-analysis of the deposited data

Results flagged for a closer look

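For 8 of the 38 genes the effect of more ZNF165 differed between the lines in the fit of all 12 libraries (edgeR quasi-likelihood test), where 17.5% of all genes tested did so. Each value is the log2 effect in MKN45 (overexpression minus control) minus that in MKN28 (control minus knockdown). FOS gave −2.46 (adjusted p = 0.0258). FOSL1 gave 4.54 (adjusted p = 0.00325), the largest of the 8. JUND gave 2.41 (adjusted p = 0.0344) and MAFF 3.41 (adjusted p = 0.0304). SRF gave 2.59 (adjusted p = 0.00900) and IER5 2.28 (adjusted p = 0.0209), both with little change in MKN45. NR4A2 gave 2.94 (adjusted p = 0.00725) and EGR1 2.34 (adjusted p = 0.0228), both past the threshold in the overexpression alone. The direction of the ZNF165 change and the line cannot be told apart in this design. FOSL1, NR4A2 and SRF passed in all 17 alternatives run for this contrast, MAFF in 5 and JUND in 7. In place of 8, 14 members were called without MKN28 knockdown replicate 1 and 4 or 5 without any single one of the other libraries apart from MKN28 control replicate 2, knockdown replicate 2 and MKN45 control replicate 2.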

How the results depend on the processing

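For the knockdown, 7 members higher became 12 with DESeq2, 4 with library totals alone, 12 in a fit of all 12 libraries and 3 without both libraries described as ZNF166 and ZNF167. The 3 members lower became 7 with library totals alone, 8 in the fit of all 12, 6 with the length and GC trends removed and 1 without both of those libraries, which also took genes called from 6092 to 3352. Genes called became 7289 with DESeq2, 5214 with library totals alone, 8734 in the fit of all 12 and 6137 with the trends removed. With the trends removed, ZFP36 (−1.48) and PHLDA1 (1.25) changed sign and passed. For the overexpression, 5 members higher became 11 with DESeq2, 9 with no filter, 0 in the fit of all 12 and 11 with the trends removed. The genes called, 179, became 1834, 722, 3 and 1079 in that order, and the share of higher calls, 82.7%, became 56.6%, 67.2%, 100% and 58.5%. The 3017 genes called for the difference between the arms became 4730 with DESeq2. Library totals alone moved the median log2 fold change of all genes from −0.20 to −0.92 in the knockdown, from −0.0022 to 0.10 in the overexpression and from −0.04 to −0.16 between the lines. Leaving out 1 library at a time gave 4 to 13 members higher, 1 to 11 lower and 2642 to 10378 genes called in the knockdown. It gave 0 to 14 members higher, 0 to 0 lower and 1 to 1338 genes in the overexpression, 7 to 10 higher, 6 to 16 lower and 5085 to 7499 genes between the lines, and 4 to 14 members and 1163 to 8210 genes for the difference between the arms. Without MKN28 knockdown replicate 1, 13 members were higher and 11 lower. Without MKN28 control replicate 1 there were 4 and 1, and without control replicate 3, 4 and 4. Members lower in MKN45 were 6 without MKN28 control replicate 1 and 7 without MKN45 control replicate 3. DUSP2 in the overexpression ranged from −0.61 to 1.23, and passed with changed sign, at 1.23, without MKN45 control replicate 2.

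Libraries with the same replicate number did not deviate together in every pair (r = 0.31, 0.48 and −0.41 in the knockdown, −0.08, −0.06 and 0.10 in the overexpression), so the numbers were not taken as a pairing. With a replicate block, the knockdown had 11 members higher and 5 lower, the overexpression had 1 member higher, FOSB, and 8 genes called with 62.5% higher. EGR1, EGR3, NR4A2 and SGK1 did not pass with the block (adjusted p = 0.069 to 0.0866), at log2 fold changes of 1.90 to 2.72.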
